A study of Macaca mulatta with 30 samples.

Results

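Heat shock proteins and their partner chaperones were followed in cortical area 32, a medial prefrontal region, of 30 male rhesus macaques (Macaca mulatta) that had given themselves 4% (w/v) ethanol. The group was set by gene symbol: the HSPA, HSPB, HSP90, HSPD1, HSPE1 and HSPH1 genes, the DNAJA, DNAJB and DNAJC genes, the BAG and CCT genes, CALR, CANX and the PDIA genes. Of the 15521 genes measured, 84 carry such a symbol. Of these, 79 reached 10 normalized reads in at least 6 libraries, as 12935 genes did in all. Just inside that minimum lay DNAJB7 (median 15.3 normalized reads, 27 libraries at 10 or more), HSPA1L (16.7, 29 libraries) and HSPB3 (17.6, 28 libraries). The 5 that did not reach it were HSPB2 (median 6.24), HSPB7 (5.50), DNAJC12 (2.53), DNAJC22 (2.09) and DNAJB8 (0). HSP90AA1, HSPA1B, HSPA6, HSPA12A and DNAJA3 were not analysed here.

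All animals were naïve at the start, were induced to drink and then had open access to ethanol for 22 h a day over more than 12 months, so no group went without ethanol. Very heavy drinkers (VHD, n = 6) took on average more than 3 g/kg a day and passed 4 g/kg on at least 10% of days. Heavy drinkers (HD, n = 7) took at least 3 g/kg on 20% or more of days. Binge drinkers (BD, n = 7) took at least 2 g/kg on 55% or more of days and reached a blood ethanol of 80 mg/dl. Low drinkers (LD, n = 10) met none of these and served as the reference. Cohort 4 gave 9 animals, with a mean age of 9.98 years at the end of drinking. Cohort 5 gave 8 (7.15 years), cohort 7a gave 8 (5.70 years) and cohort 7b gave 5 (7.18 years). The categories are uneven over the cohorts: LD animals came from cohorts 4, 7a and 7b, VHD animals from cohorts 5 (4 animals) and 7a (2 animals). Tissue was taken at the hour at which daily drinking would have begun. The study used 31 animals, and its authors left out 1 outlier. Each library comes from 1 animal, so p-values measure the spread between animals, and animals are named here by category and a number in deposit order.

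As background, chaperones bind unfolded or partly folded proteins and keep them from clumping. HSP70 proteins bind and release short stretches of a client in a cycle driven by ATP, in which J-domain proteins (DNAJ) deliver clients and start ATP hydrolysis, while HSP110 proteins and BAG proteins exchange the nucleotide. HSP90 takes over clients close to their folded state, small heat shock proteins hold unfolded clients without ATP, and the ring-shaped CCT complex folds actin and tubulin. Inside the endoplasmic reticulum the HSP70 protein HSPA5, the HSP90 protein HSP90B1, the lectins CALR and CANX and the disulfide isomerases (PDIA) handle secreted and membrane proteins. Neurons use dedicated J proteins for the release and recycling of synaptic vesicles.

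The libraries held 4392296 to 13985136 reads in the measured exons (median 9075010.5), and the medians by category ran from 6152048 reads in BD to 10746252 in HD. The dissected area carried markers of the cell types of cortex. Summed markers of excitatory neurons lay between 22449 and 32615 normalized reads, and those of inhibitory neurons between 4571 and 6111. Those of blood cells never passed 23.5, but only 2 of the 4 listed blood markers were measured. Of these, ALAS2 stayed under 10 normalized reads in every library. LD replicate 3, of cohort 4, was the shallowest library and held the lowest value of all 30 animals for 17 of the 79 genes. BD replicate 1, of cohort 7a, lay outside the rest of the BD group in 6 of the genes named here, and the leading BD differences are given with and without it. In bulk tissue, fewer cells of a type and less RNA per cell cannot be told apart.

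Among the 79 chaperone genes analysed, 2 cytosolic genes stood highest per kb of exon. HSPA8, the constitutive HSP70, stood at a median of 7022 normalized reads per kb of exon (6238 to 8233 over 30 animals) and HSP90AB1, the constitutive HSP90, at 5995 (4809.5 to 7227). Their ranges overlap with each other but not with the next gene, DNAJA1, at 1941 (1665 to 2359.5), a J protein that works with HSPA8. From there down the order is continuous, since each of the other genes overlaps in range with the next one below it. The median of the 79 genes was 9.22 on the scale of log2(normalized reads + 1), against 8.06 over all tested genes. HSPA8 (chromosome 11, 115109445 to 115114088) and HSP90AB1 (chromosome 6, 45256893 to 45263349) have many near-identical processed copies in primate genomes, so reads may have been shared or lost and their values are uncertain; coordinates here are those of the deposited exon names, and their build is not given in the sources used here.

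Among the other HSP70 genes, HSPA9 of the mitochondrial matrix stood at 915 normalized reads per kb and HSPA5 of the endoplasmic reticulum at 448. The nucleotide exchange factors of the HSP110 kind were HSPH1 at 1234, HSPA4 at 686 and HSPA4L at 365. The stress-inducible HSPA1A was present in every animal at 332 (226 to 444), HSPA2, best known from the testis, at 53.0, and its relative HSPA1L at 6.57. HSPA1A (1 exon, chromosome 6, 32597410 to 32599866) begins 446 bases after HSPA1L on the same chromosome and has a near-identical copy, HSPA1B, so how its reads were assigned is uncertain. Of the J proteins, DNAJC6 (auxilin, which strips clathrin from vesicles together with HSPA8) reached 1092 and DNAJC5 (cysteine string protein of synaptic vesicles) 720.2 normalized reads per kb, above all other DNAJC genes, which lay at 451 (DNAJC7) or less. The inducible DNAJB1 stood at 199. BAG6, which guards membrane proteins before insertion, led its family at 580.4, BAG1 stood at 115, and BAG3, the inducible BAG protein that pairs with HSPB8 in selective autophagy, was the lowest of them at 10.9.

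The CCT ring is assembled from different subunits that are each needed in equal number. The 7 genes CCT2, CCT3, CCT4, CCT5, CCT6A, CCT7 and CCT8 lay within 481 (CCT5) to 1082 (CCT8) normalized reads per kb, with CCT2 at 706, while CCT6B, the copy known from testis, stood at 64.2, below the range of every other subunit. HSPD1 and HSPE1, the mitochondrial chaperonin and its lid, are neighbours on chromosome 2b with 3108 bases between them and stood at 482 and 242; the exons listed for HSPE1 span 339 bases, so its value rests on 85.5 reads in the median library. In the endoplasmic reticulum HSP90B1 was highest at 1494, followed by CANX at 1293, CALR at 1163 and PDIA3, their partner isomerase, at 589.9. PDIA2, an isomerase known from pancreas, stood at 109 and PDIA5 at 15. Genes with an HSPB symbol were sparse. HSPB11, a subunit of intraflagellar transport in spite of its symbol, stood at 168. HSPB8 stood at 160.3, HSPB1 at 85.6, HSPB6 at 36.5 and HSPB3 at 22.8.

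**Figure D1:**
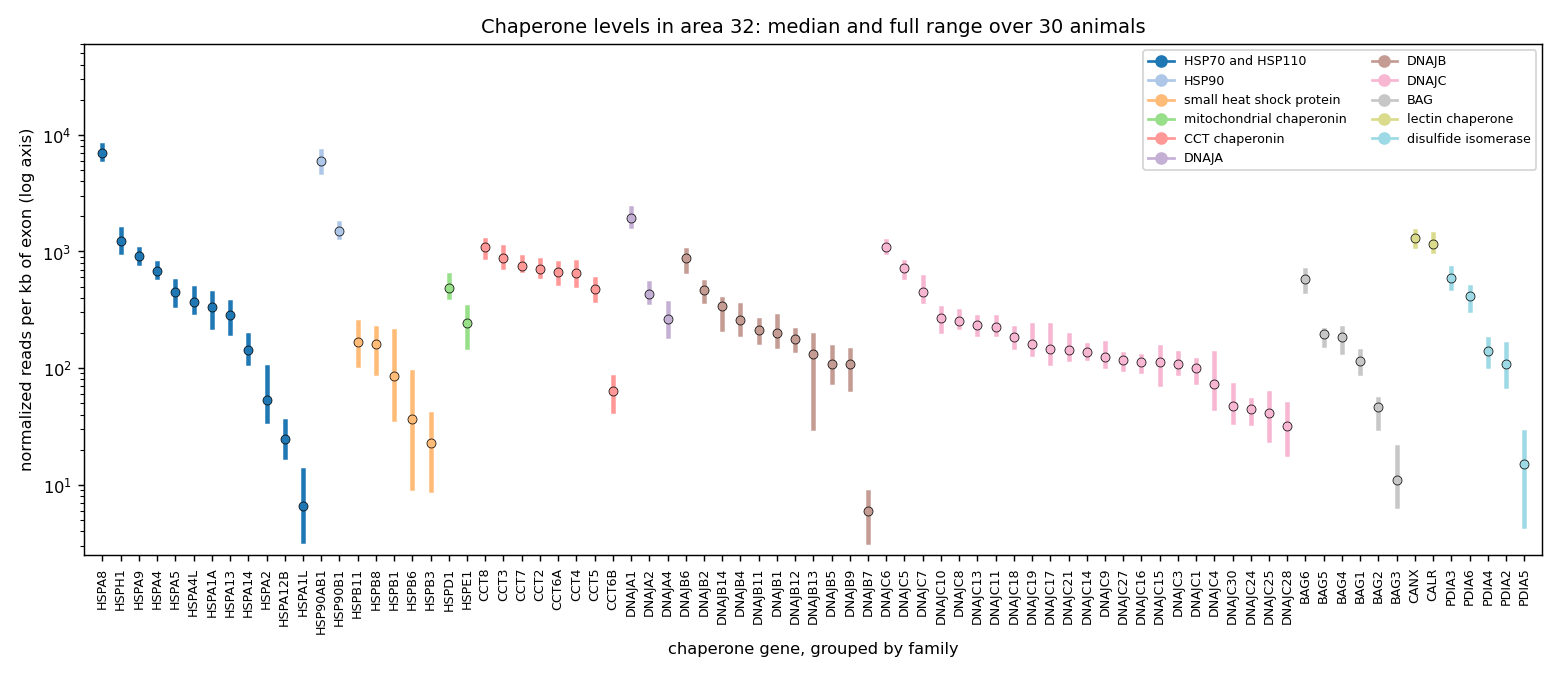
Level of each of the 79 chaperone genes in normalized reads per kb of exon (log axis), grouped by family; points are medians and bars the full range over 30 animals. HSPA8 (7022) and HSP90AB1 (5995) stand above all others, and the bars of DNAJB13 and of the small heat shock proteins HSPB1, HSPB6 and HSPB3 are among the longest.

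Animals differed little in most of these genes and much in a few. The median SD over 30 animals was 0.17 log2 units for the 79 genes and 0.22 for all tested genes; abundant genes vary less on this scale, and the chaperones are more abundant than the median gene. The steadiest were DNAJC14 (SD 0.078), DNAJC6 (0.086), HSPA9 (0.095) and CCT7 (0.095). The most variable were HSPB6 (SD 0.77), HSPB1 (0.56), PDIA5 (0.56), DNAJB13 (0.55), HSPB3 (0.49) and BAG3 (0.44). These were named after their values were seen. Counting error alone would give an SD of 0.21 for HSPB6, 0.17 for HSPB1 and 0.11 for DNAJB13, but 0.32 for PDIA5 and 0.39 for HSPB3, whose libraries held 4 to 48 and 5 to 44 reads. DNAJB13, a J protein of the cilium's axoneme, spread from 52.6 to 327 normalized reads and was less steady than 92.4% of tested genes.

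**Figure D2:**
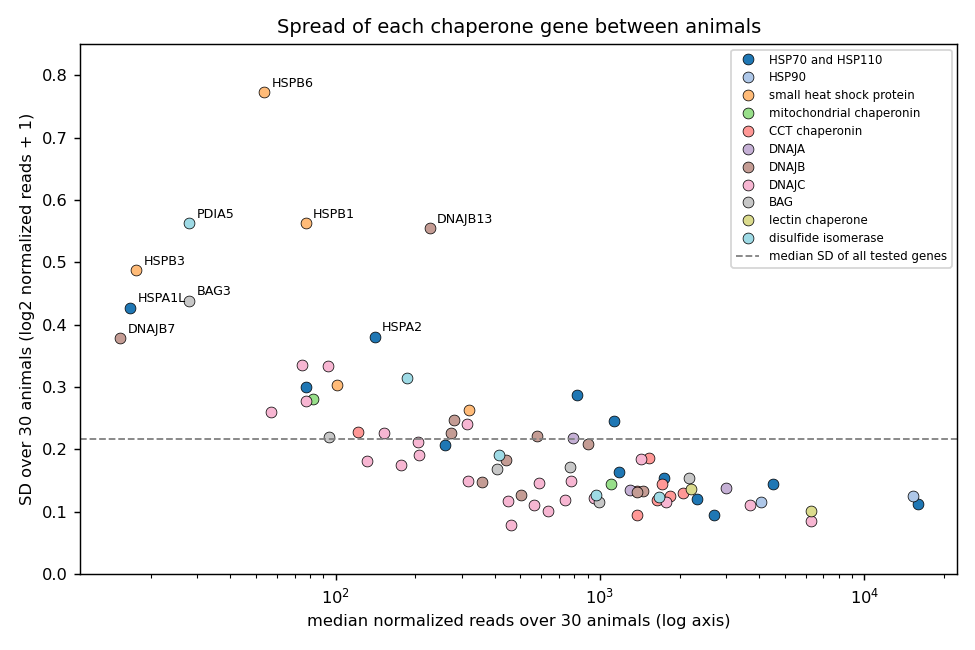
SD over 30 animals of log2(normalized reads + 1) against the median normalized reads (log axis), 1 point per chaperone gene, coloured by family; the dashed line is the median SD of all tested genes (0.22). HSPB6 (0.77), HSPB1 (0.56) and DNAJB13 (0.55) lie above genes of like level.

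In binge drinkers, 3 small heat shock proteins had the largest differences from low drinkers among the 79 genes, all upward, but none passed the test. HSPB1 (HSP27, which binds unfolded proteins and actin filaments, chromosome 7, 40983520 to 40985229) had a lowest, median and highest value of 32.8, 74.7 and 141 normalized reads in LD and 66.9, 125 and 187 in BD. Of the 7 BD animals, 2 lay above every LD animal, and the groups overlap. The limma difference was 0.69 ± 0.24 log2 units (± SE, p = 0.00672, adjusted p = 0.999), with 6 of 7 BD animals above the LD mean. HSPB6 (HSP20, of smooth muscle and astrocytes, chromosome 19, 31302787 to 31305268) ran over 13.9, 51.1 and 63.6 in LD and 20.3, 81.8 and 135 in BD. Of the 7 BD animals, 6 lay above the LD mean, and 1 was near the bottom of the LD range. Its difference was 0.90 ± 0.35 (p = 0.015, adjusted p = 0.999). HSPB3, a small heat shock protein of muscle (chromosome 5, 55264857 to 55265630), ran over 6.92, 12.3 and 18.6 in LD and 7.44, 25.1 and 31.4 in BD. Its lowest BD value is that of BD replicate 1, and the difference was 0.66 ± 0.23 (p = 0.00774, adjusted p = 0.999).

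Without BD replicate 1 the differences of HSPB1, HSPB6 and HSPB3 were 0.65, 0.93 and 0.94. Within cohort 4, which holds 4 BD and 4 LD animals, they were 0.58, 0.92 and 0.67. The other tested genes with an HSPB symbol, HSPB8 (-0.033 ± 0.12) and HSPB11 (0.20 ± 0.15), were closer to 0. The median of the 5 was 0.66. Among markers of blood vessels, 2 of 4 tested endothelial genes were higher in BD at an unadjusted p under 0.05, and 2 lay below 0. Of 7 genes of vessel wall and meninges, 0 had such a p, with 2 above 0 and 5 below. The summed endothelial level was 1151 to 1587 (median 1248) in BD and 928 to 1729 (median 1208) in LD. Of 5 astrocyte genes, 4 lay below 0, and 1 was lower at an unadjusted p under 0.05. The part of these cells in the small heat shock protein values was not tested. Below LD, the smallest p-values belonged to CCT6B (-0.20 ± 0.11), DNAJC13 (-0.093 ± 0.057), which acts on endosomes, and BAG6 (-0.11 ± 0.073). Without BD replicate 1 these were -0.27, -0.12 and -0.056. CCT6B was at -0.39 within cohort 4, and DNAJC13 at -0.059 without BD replicate 4.

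Over the whole group, 0 of 79 genes in BD had a limma adjusted p under 0.05, as had 0% of all tested genes. At an unadjusted p under 0.05 it gave 4 genes, all higher, of 79, against 3.05% of the 12935 tested genes (1.56% higher, 1.48% lower); edgeR on whole reads gave 0 called and 4 unadjusted. The fourth gene is DNAJC4, at 0.32 ± 0.15. The median difference was 0.014 for the 79 genes and 7.7e-05 for all tested genes. The unadjusted count was 8 without BD replicate 1 or 7, 7 without LD replicate 3 and 2 without LD replicate 7, and the median turned to -0.017 and -0.0080 without BD replicate 1 and 7.

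**Figure D3:**
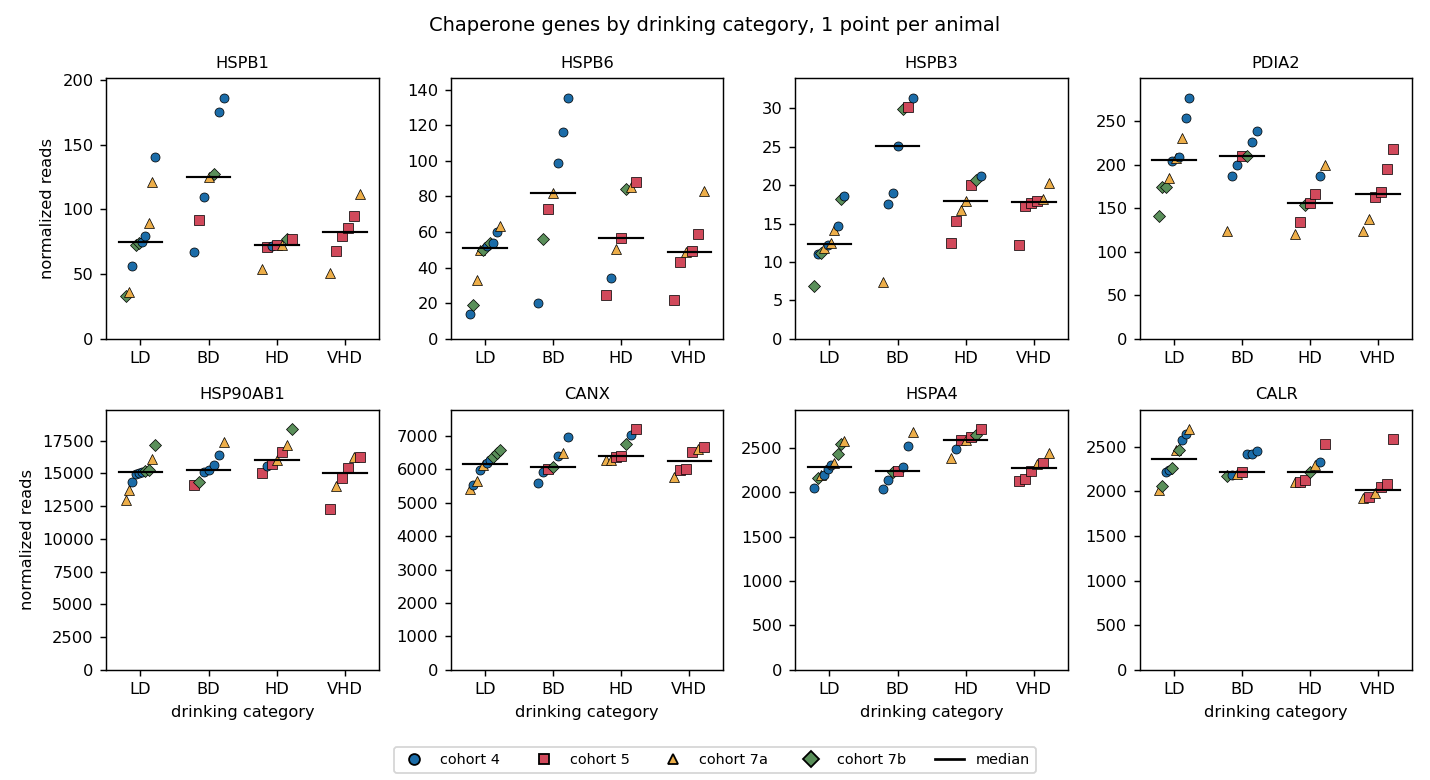
Normalized reads of 8 chaperone genes by drinking category, 1 point per animal with the marker showing its cohort and the bar the median of the category. HSPB1 runs over 66.9, 125 and 187 (lowest, median, highest) in BD against 32.8, 74.7 and 141 in LD, whereas HSP90AB1, CANX and HSPA4 in HD differ from LD by a small part of their level.

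In heavy drinkers, the constitutive HSP90 gene HSP90AB1, the lectin CANX and the exchange factor HSPA4 lay above low drinkers, by 10.6% to 12.9%, and PDIA2 and BAG6 lay below; none passed the adjusted test. HSP90AB1 had 12974, 15071 and 17124 normalized reads in LD and 15000.1, 16027 and 18393 in HD. All 7 HD animals lay above the LD mean, and the ranges overlap. The difference was 0.17 ± 0.064 log2 units (p = 0.0106, adjusted p = 0.317). CANX, the membrane-bound lectin chaperone, had 5404, 6155 and 6571 in LD and 6277, 6392 and 7212 in HD, a difference of 0.15 ± 0.055 (p = 0.0128, adjusted p = 0.323). HSPA4, an HSP110 exchange factor, had 2046, 2285 and 2576 in LD and 2392, 2592 and 2716 in HD, a difference of 0.15 ± 0.058 (p = 0.0134, adjusted p = 0.324). For both, all 7 HD animals lay above the LD mean and the ranges overlap.

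PDIA2 (chromosome 16, 265707 to 270018) had 142, 206 and 277 normalized reads in LD and 121, 156 and 199 in HD, a difference of -0.37 ± 0.13 (p = 0.00876, adjusted p = 0.317). BAG6 had 1959.9, 2285 and 2496 in LD and 1805, 1979 and 2178 in HD, a difference of -0.20 ± 0.079 (p = 0.0173, adjusted p = 0.331). All 7 HD animals lay below the LD mean for both genes, with overlapping ranges. DNAJB2, a neuronal J protein that works with the proteasome, came next below LD at -0.13 ± 0.073 (p = 0.076). As a check, the libraries were divided into 4 sets by runs of 8 consecutive library numbers. These cuts were chosen here and are not batches taken from the labels. With a term for the sets HSP90AB1 was at 0.090, HSPA4 at 0.077, PDIA2 at -0.18, BAG6 at -0.074 and DNAJB2 at -0.027. CANX moved by less than 1.5 times.

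By count, limma called 0 of 79 genes in HD, and 0% of all tested genes; at an unadjusted p under 0.05 there were 14 genes, 12 higher and 2 lower, against 12.5% of all tested genes (5.87% higher and 6.68% lower). edgeR on whole reads called 0 and gave 12 at the unadjusted level, 10 of them higher. The higher ones by limma, listed after their values were seen, were HSP90AB1, CANX, HSPA4 and HSPH1 (another HSP110 protein, 0.15 ± 0.068), the J proteins DNAJA1 (0.16 ± 0.069), DNAJB6 (0.14 ± 0.070) and DNAJC6 (0.11 ± 0.048), the ring subunits CCT8 (0.14 ± 0.064) and CCT6A (0.16 ± 0.076), BAG1 (0.20 ± 0.090), PDIA6 (0.14 ± 0.068) and HSPB3 (0.53 ± 0.25). All 8 CCT genes lay above 0 (median 0.063), as did 18 of 23 DNAJC genes (median 0.086), 8 of 12 HSP70 and HSP110 genes and all 3 DNAJA genes. DNAJB genes were even, with 6 of 11 above 0 (median 0.0024), and 2 of 5 disulfide isomerases lay above 0 (median -0.065). Of the 79, 57 were above 0 and the median was 0.067, against 0.0027 over all tested genes.

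The HD count moved with single animals, to 5 without HD replicate 3, 6 without HD replicate 7 and 9 without HD replicate 1. It was 7 without LD replicate 8 and 8 without BD replicate 6. With a term for library number sets it was 5, all higher. The set of library numbers 1 to 8 held HD replicates 1 to 4 but, of the LD animals, only replicate 1. Library order and category are therefore partly confounded in HD against LD. Markers of other cells differed in the same comparison: all 7 genes of vessel wall and meninges lay below 0 in HD, 6 of them at an unadjusted p under 0.05, with a median difference of -0.82 and a summed level of 1719.7 to 5839 (median 2304) in HD against 2638 to 5580.2 (median 3803) in LD. All 5 oligodendrocyte genes lay below 0 (median -0.22, 1 at an unadjusted p under 0.05), as did 4 of 5 microglial genes (2 at that level) and 4 of 5 astrocyte genes (1 at that level), and 2 of 4 endothelial genes had such a p, 1 on either side. Of the neuronal markers, 0 of 4 excitatory and 0 of 5 inhibitory genes had an unadjusted p under 0.05. The part of these cells in the chaperone values was not tested.

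**Figure D4:**
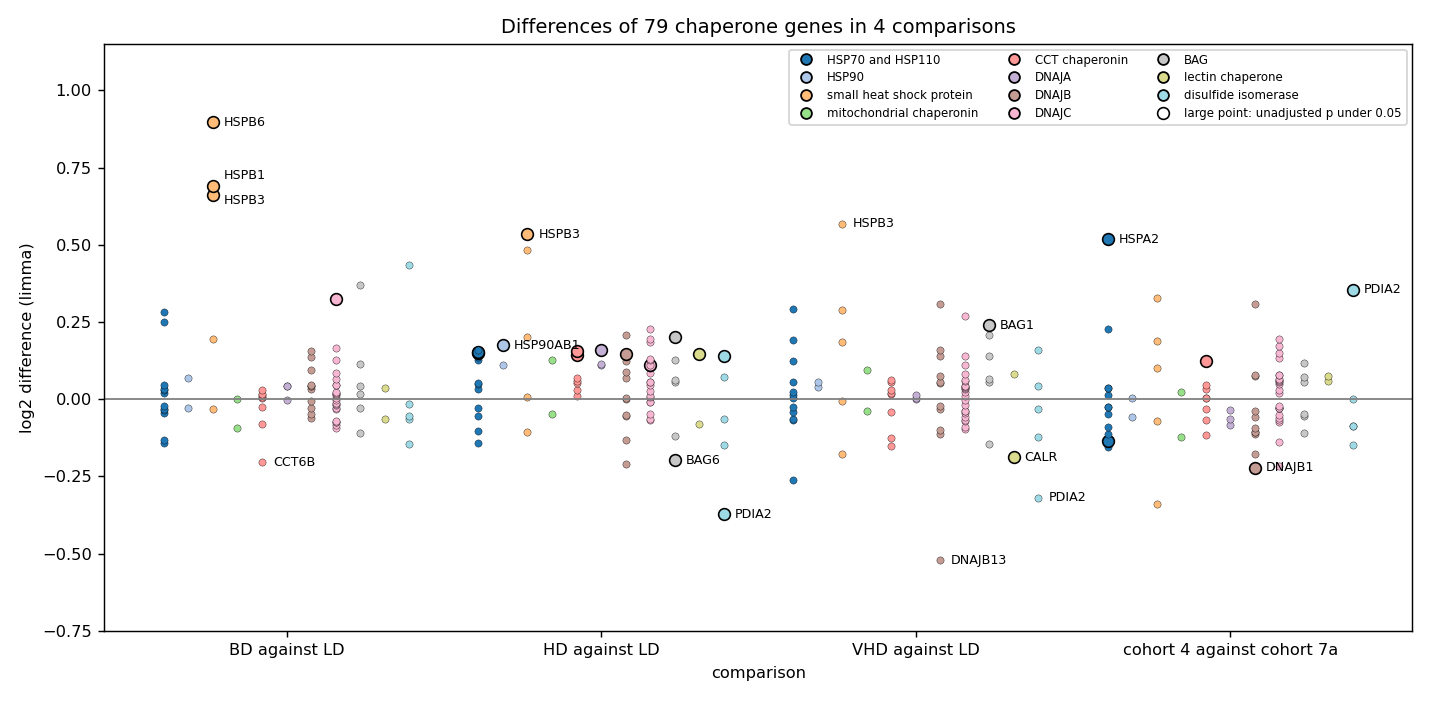
Limma log2 differences of the 79 chaperone genes in 4 comparisons, coloured and spread sideways by family; large points have an unadjusted p under 0.05, and none has an adjusted p under 0.05. The 3 small heat shock proteins at 0.66 to 0.90 stand out in BD, the many small upward points in HD, and HSPA2 (0.52) in the cohort comparison.

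In very heavy drinkers, the extreme of intake, CALR lay below and BAG1 above low drinkers at the smallest p-values, and neither passed the adjusted test. CALR, the soluble lectin chaperone that also stores calcium, had 2014, 2363 and 2699 normalized reads in LD and 1926, 2014 and 2586 in VHD. Of the 6 VHD animals 5 lay below the LD mean, and VHD replicate 4 lay apart from them at the top of the group. The difference was -0.19 ± 0.083 log2 units (p = 0.0311, adjusted p = 0.948). BAG1, which releases clients from HSP70 and links it to the proteasome (chromosome 9, 60502005 to 60514551), had 349, 381 and 470.0 in LD and 393, 448 and 478 in VHD. All 6 VHD animals lay above the LD mean, the ranges overlap, and the difference was 0.24 ± 0.11 (p = 0.0322, adjusted p = 0.948).

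The next genes above LD were DNAJC15 of the mitochondrial inner membrane (0.27 ± 0.14), HSPB3 (0.57 ± 0.30), HSPA2 (0.29 ± 0.18) and HSPA13, a microsomal HSP70 (0.19 ± 0.14). Those below were PDIA2 (-0.32 ± 0.16), CCT5 (-0.13 ± 0.074), DNAJB13 (-0.52 ± 0.32) and BAG6 (-0.14 ± 0.093). For these 8 the smallest p was 0.0516. Within cohort 7a, where 2 VHD and 3 LD animals meet, CALR differed by -0.28, BAG1 by 0.25 and PDIA2 by -0.66, but DNAJB13 by 0.058, the other way. Leaving out 1 animal moved 3 values: CCT5 was at -0.068 without VHD replicate 5, DNAJB13 at -0.29 without VHD replicate 3 and BAG6 at -0.092 without VHD replicate 2. Without the cohort term DNAJC15 was at 0.053, HSPA2 at 0.19 and CCT5 at -0.056, and with sets of library numbers PDIA2 was at -0.18 and BAG6 at -0.080. Limma called 0 of 79 genes, and 0% of all tested genes. At an unadjusted p under 0.05 it gave 2 (BAG1 and CALR), 1 in each direction, against 3.5% of all tested genes (1.76% higher, 1.74% lower), and edgeR called 0 and gave 3. All 7 genes of vessel wall and meninges lay below 0 here as well, 0 of them at an unadjusted p under 0.05, while 1 of 5 astrocyte, 1 of 2 precursor and 1 of 4 endothelial genes had such a p; their part was not tested. The unadjusted count was 0 without HD replicate 5, 1 without VHD replicate 2 or 5, 4 without HD replicate 1 or VHD replicate 6, and 5 without VHD replicate 4. The median difference of the 79 genes was 0.023, against -0.00033 for all tested genes.

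Scoring LD, BD, HD and VHD as equal steps gave slopes in log2 units per step. BAG1 had 0.085 ± 0.033, DNAJC15 0.10 ± 0.044, HSPB3 0.21 ± 0.10, CANX 0.038 ± 0.021 and DNAJB14, a J protein of the endoplasmic reticulum membrane, 0.061 ± 0.040. Downward slopes were those of PDIA2 (-0.13 ± 0.050), CALR (-0.057 ± 0.026), BAG6 (-0.061 ± 0.030), DNAJB13 (-0.16 ± 0.10) and DNAJB2 (-0.041 ± 0.027). Without the cohort term the slopes of DNAJC15 and HSPB3 were 0.032 and 0.12. With sets of library numbers those of DNAJB14, PDIA2, BAG6 and DNAJB2 were 0.029, -0.066, -0.027 and -0.0093. DNAJB13 was at -0.10 without HD replicate 7 and -0.24 without LD replicate 8. Limma called 0 of 79 genes along this trend, and 0% of all tested genes. At an unadjusted p under 0.05 there were 5 (BAG1, DNAJC15 and HSPB3 upward, PDIA2 and CALR downward), against 6.18% of all tested genes (3.12% upward, 3.06% downward), and edgeR called 0 and gave 3. The count was 2 without VHD replicate 2 and 3 without any 1 of HD replicates 3 and 7, LD replicates 2, 3 and 6 and VHD replicate 5.

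An F test over the 4 categories asks whether a gene differs between any of them. HSPA4 (F = 4.35, p = 0.0114, adjusted p = 0.861), HSPA2 (3.85), HSPB1 (3.33), HSPB3 (3.17), HSP90AB1 (2.77) and PDIA2 (2.73) had the largest F. Their order over the categories differs. HSPA4 had its highest median in HD (2592 normalized reads, against 2239 to 2285 in the other three), HSPB1 in BD, and HSPA2 in BD (161) and VHD (158) against 127 in LD and 111 in HD. Limma called 0 of 79 genes, and 0% of all tested genes. At an unadjusted p under 0.05 there were 4, against 5.62% of all tested genes, and edgeR called 0 and gave 4. The count was 10 without BD replicate 1 or 7, 7 without VHD replicate 1 or LD replicate 3 and 2 without BD replicate 3 or LD replicate 5.

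Between cohorts, HSPA2 (chromosome 14, 126290078 to 126292841) had the largest difference between the oldest and the youngest cohort among the 79 genes, higher in the oldest, but did not pass the adjusted test. Its lowest, median and highest values were 116, 179.5 and 273 normalized reads in cohort 4, 104, 158 and 201 in cohort 5, 94.1, 120.4 and 158 in cohort 7a and 97.4, 131 and 149.8 in cohort 7b. Of the 9 animals of cohort 4, 8 lay above the mean of cohort 7a, with overlapping ranges. The difference between cohorts 4 and 7a, with drinking category in the model, was 0.52 ± 0.14 log2 units (p = 0.00103, adjusted p = 0.195). Among LD animals alone, 4 of cohort 4 and 3 of cohort 7a, it was 0.66. Cohort and age cannot be told apart. PDIA2 had 187, 209 and 277 in cohort 4 and 121, 161 and 231 in cohort 7a, with all 9 animals of cohort 4 above the mean of cohort 7a and a difference of 0.35 ± 0.13 (p = 0.00926, adjusted p = 0.358), but 0.18 among LD animals.

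The ring subunit CCT7 (0.12 ± 0.054), DNAJC8, which associates with splicing factors (0.13 ± 0.066), and DNAJC14 (0.077 ± 0.053) were next among the genes higher in cohort 4. Among LD animals alone CCT7 was at 0.043. DNAJB1, a J protein of HSPA8 and HSPA1A, had the smallest p among the genes below 0, with 347, 419.5 and 487 normalized reads in cohort 4 and 409, 487 and 626 in cohort 7a, where the top animal is BD replicate 1, and a difference of -0.22 ± 0.091 (p = 0.0204, adjusted p = 0.437). HSPH1 had 3601, 4184 and 4809.8 in cohort 4 and 4446, 4740.1 and 5342 in cohort 7a and differed by -0.14 ± 0.065 (p = 0.0452). HSPA4 (-0.11 ± 0.056), CCT8 (-0.12 ± 0.061) and HSPA4L (-0.15 ± 0.083) followed. Without BD replicate 1 HSPH1 was at -0.071, HSPA4 at -0.071, CCT8 at -0.066 and HSPA4L at -0.050. The HSP70 and HSP110 family lay on both sides, with 5 of 12 genes above 0.

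Limma called 0 of 79 genes between cohorts 4 and 7a, and 0% of all tested genes; 5 had an unadjusted p under 0.05, 3 higher and 2 lower in cohort 4, against 9.15% of all tested genes (4.94% higher, 4.21% lower), and edgeR called 0 and gave 7. The count was 2 without HD replicate 7, 3 without BD replicate 1 or LD replicate 2, and 8 without BD replicate 6 or 7. Over all 4 cohorts limma called 0 of 79, and 0% of all tested genes, and 4 had an unadjusted p under 0.05, against 8.04%: HSPA2 (F = 5.18, p = 0.00515, adjusted p = 0.379), PDIA2 (4.06), DNAJC15 (3.28) and DNAJC18 (3.22), followed by DNAJB5 (2.78) and PDIA3 (2.64). edgeR called 0 and gave 4; the count was 2 without HD replicate 3 and 7 without BD replicate 4. Markers of other cells differed here too: all 5 oligodendrocyte genes were higher in cohort 4 at an unadjusted p under 0.05, with a median difference of 0.67 and a summed level of 3743 to 17491 (median 6073) against 3514 to 5868 (median 4552) in cohort 7a. Of the vessel wall and meninges genes 5 of 7 had such a p (2 higher, 3 lower), as had 2 of 5 astrocyte, 1 of 5 inhibitory and 1 of 2 precursor genes. Their part in the HSPA2 and PDIA2 values was not tested.

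Members listed as heat-inducible, 12 measured of 14 listed, lay on both sides of 0 in every drinking category. The 12 were HSPA1A, HSPA8, HSPA4, HSPA4L, HSPH1, HSPB1, HSPD1, HSPE1, DNAJA1, DNAJB1, DNAJB4 and BAG3. They thus include HSPA8, named above as the constitutive HSP70. In HD 9 of 12 lay above 0, in BD 7 and in VHD 6. At an unadjusted p under 0.05 there were 3 in HD (12.5% of all tested genes), 1 in BD (3.05%) and 0 in VHD (3.5%). The 3 comparisons gave medians of 0.059, 0.0095 and -0.0089 log2 units. Among them HSPA1A had 614, 818 and 987 normalized reads in LD, 678, 783 and 1091 in BD, 554, 831 and 1043 in HD and 648, 706 and 1067 in VHD, and BAG3 19.4, 27 and 47.6 in LD and 24.1, 44.9 and 53.6 in BD. The ranges of both genes overlap between all categories given. A list of 16 members of the endoplasmic reticulum, which is not complete, had 12 above 0 in HD, 10 in VHD and 3 in BD. At an unadjusted p under 0.05 by limma there were 3 in HD, 2 higher and 1 lower (12.5% of all tested genes). VHD had 1, lower (3.5%), and BD had 0 (3.05%). The medians were 0.091, 0.041 and -0.057. HSPA5, the first chaperone to rise when that compartment is stressed, had 1379, 1710.2 and 2174 in LD and 1550.3, 1636 and 1923 in VHD. The 3 comparisons share the LD animals.

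Regulators, cochaperones and sensors outside the symbol rule were read from a list of 41 genes, of which 38 were tested. Limma and edgeR called 0 of them in each of the 7 gene comparisons. At an unadjusted p under 0.05 there were 0 in VHD (3.5% of all tested genes), 0 in BD (3.05%) and 7 in HD, 3 higher and 4 lower (12.5%). Along the trend there were 4 (6.18%), for any category 3 (5.62%), for any cohort 6 (8.04%) and between cohorts 4 and 7a 4 (9.15%). In HD 22 of the 38 lay above 0 and 16 below, with a median of 0.012. The HSP90 cochaperone PTGES3 (p23) was at 0.29 ± 0.10 and CHORDC1, another HSP90 partner, at 0.24 ± 0.11. Values of the other HSP90 partners on the list are not given here. The stress sensor ERN1 (IRE1) was at -0.45 ± 0.16 and HSF1, the master factor of the heat shock response, at -0.20 ± 0.10, with adjusted p-values of 0.317 and 0.392.

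Across animals, certain pairs of the chaperones examined went up and down together. Pearson's r over the 30 animals was computed on log2(normalized reads + 1) for all 21 pairs of HSPH1, DNAJB1, HSPA8, HSPA5, HSP90B1, CALR and PDIA4, each with a two-sided permutation test of 100000 resamples and Benjamini-Hochberg adjustment over the 21. The strongest pair was HSPH1 and HSP90B1, r = 0.74 (rho = 0.72, adjusted p = 0.00021), a cytosolic exchange factor and the HSP90 of the endoplasmic reticulum. Within cohorts 4, 5 and 7a r was 0.72, 0.90 and 0.50, and without the 2 animals farthest from the median of HSPH1 it was 0.68. HSPH1 also went with HSPA8, its HSP70 partner, at r = 0.61 (rho = 0.58, adjusted p = 0.00441), with 0.84, 0.55 and 0.42 within those cohorts and 0.52 without 2 animals. Cohort 7b, with 5 animals, is too small for its own value.

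In the endoplasmic reticulum, HSPA5 went with CALR at r = 0.50 (rho = 0.55, adjusted p = 0.0223), with 0.79, 0.24 and 0.74 within cohorts 4, 5 and 7a and 0.59 without 2 animals. CALR went with PDIA4 at r = 0.53 (rho = 0.55, adjusted p = 0.0164), but within cohort 4 r was 0.031, and the adjusted p was 0.0514 without the 2 farthest animals (r = 0.48). DNAJB1 went with HSPA5 at r = 0.52 (rho = 0.49, adjusted p = 0.0164), with 0.69, 0.051 and 0.70 within cohorts 4, 5 and 7a; without the 2 farthest animals the adjusted p was 0.0883 (r = 0.42). HSPA5 and HSP90B1, both known targets of the unfolded protein response, had r = 0.094 (adjusted p = 0.768), and HSP90B1 and CALR -0.37 (adjusted p = 0.152), but in residuals after sets of library numbers they had 0.27 and 0.24, the latter of opposite sign. In all, 5 of 21 pairs had an adjusted p under 0.05. Pairs of other genes were not computed, so whether this share is particular to chaperones was not tested. DNAJB1 and CALR joined them in residuals after category and cohort (r = 0.59, adjusted p = 0.00239, against r = 0.33 before), and HSPH1 and DNAJB1 in residuals after sets of library numbers (r = 0.54, adjusted p = 0.00794, against r = 0.35).

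**Figure D5:**
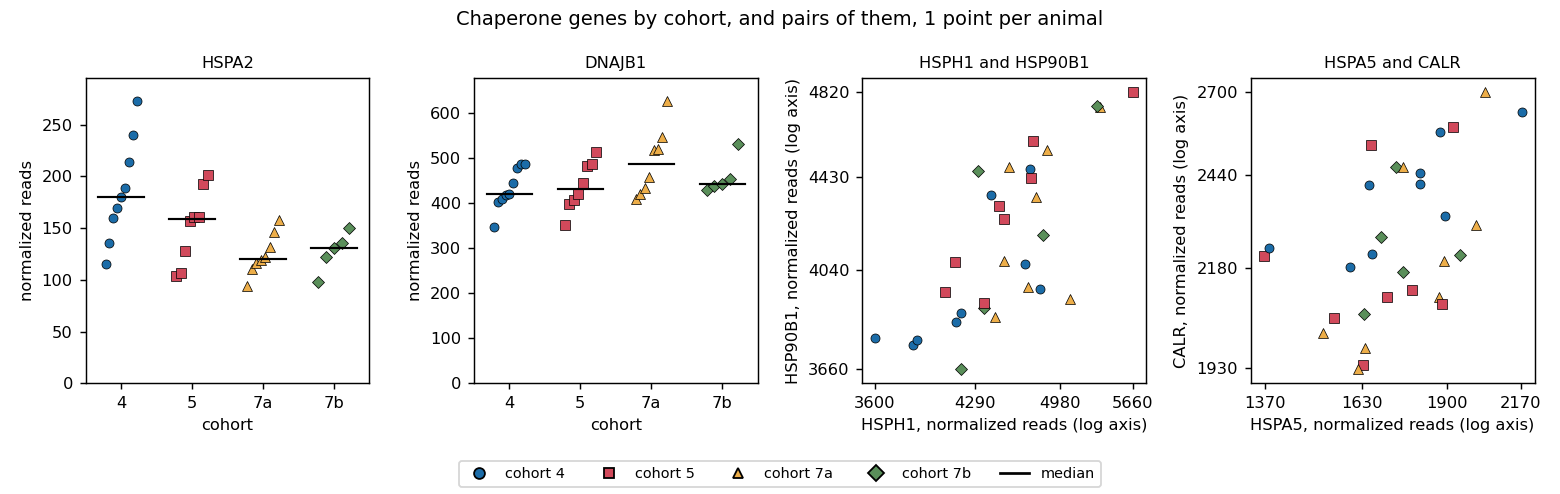
Left, normalized reads of HSPA2 and DNAJB1 by cohort, 1 point per animal with medians as bars; right, HSPH1 against HSP90B1 and HSPA5 against CALR over the 30 animals (log axes). HSPA2 has medians of 179.5 in cohort 4 and 120.4 in cohort 7a, and the pairs have r = 0.74 and 0.50.

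Exons were read relative to the rest of their gene, as log2(exon + 1) minus log2(rest of the gene + 1), since alternative exons change that ratio. Of 104340 exons tested, 720 lie in 69 of the chaperone genes. In VHD against LD limma called 0 of the 720, and 0% of all tested exons, and 15 had an unadjusted p under 0.05, against 3.66% of all. The exon with the smallest p was one of HSPB11 (chromosome 1, 53320297 to 53320409), on very few reads, at a median of 3.22 normalized reads in LD and 6.96 in VHD. It had a relative difference of 1.77 ± 0.58 log2 units with cohort in the model, and mean relative values of -4.51 in LD and -3.68 in VHD. It was followed by an exon of HSPD1 (chromosome 2b, 84982549 to 84982724; 86.3 in LD, 67.9 in VHD; -0.42 ± 0.14) and one of HSPA4L (chromosome 4, 127021727 to 127021867; 67.7 and 52.7; -0.37 ± 0.13). For all of them the adjusted p rounds to 1.

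Over the cohorts limma again called 0 of the 720 exons, and 0% of all, with 20 at an unadjusted p under 0.05, against 4.31%. An exon of PDIA3 (chromosome 14, 20087832 to 20087940) had a relative value of -3.38 ± 0.27 (mean ± SD, n = 8) in cohort 7a and -4.00 ± 0.31 (n = 8) in cohort 5, with F = 7.40. DNAJC16, a J protein of the endoplasmic reticulum, held the next 2 exons (chromosome 1, 14358508 to 14358638 and 14361109 to 14361292), both lowest in cohort 5, at -5.20 ± 0.33 and -4.30 ± 0.16, against -4.53 ± 0.19 and -3.81 ± 0.11 (n = 5) in cohort 7b.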

How the data were processed

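Bulk RNA-seq was made from area 32 with ribosomal RNA depletion and a kit that marks strand, per the labels' protocols. CASAVA, FastQC, STAR 2.3.0e and edgeR are named in the submitters' processing notes. Genome build, annotation, read counter and use of strand: not given in the sources used here. The deposited signal is reads per gene and per exon, which the authors brought to the same upper quartile with 1 factor per library. 1 read is worth 0.656 to 2.07 normalized reads, and 100% of values were whole reads within 0.01 read.

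Genes reaching 10 normalized reads in 6 or more libraries entered limma 3.58.1 (R 4.3.3) on log2(normalized reads + 1), so differences of low genes are understated. The model held drinking category and cohort over all 30 libraries, with a mean trend and Benjamini-Hochberg adjustment over all 12935 tested genes at 0.05. edgeR 4.0.16 (quasi-likelihood, TMM) on whole reads was an alternative and called 0 genes in each comparison. Exons were fitted in the same way, including the mean trend. Scripts were tested on simulated data. Correlations used scipy 1.17.1, and figures matplotlib 3.10.9. The smallest chi-square per degree of freedom between any 2 libraries was 2.99, so no pair agreed within counting noise.

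Genes are named by lowest p on either side of 0: 5 a side for VHD, the trend and cohort 4 against 7a, 3 a side for HD and BD, and 6 in all for the F tests, beside a list of genes named for their levels. Members and lists were chosen with earlier results of these data known.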

Additional observations from a re-analysis of the deposited data

Results flagged for a closer look

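For 42 chaperone genes, the highest and lowest animal of each drinking category was set against its neighbours by Dixon's ratio, which chance exceeds in about 1 of 20 groups. Of 168 groups, 14 held an animal that lay apart, and values are in normalized reads.

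BD replicate 1 accounts for 6 of them: it was lowest in HSPB3 at 7.44 (others 17.6 to 31.4), PDIA2 at 123 (others 187 to 239) and DNAJC5 at 3129 (others 3653 to 4099), and highest in DNAJB1 at 626 (others 419.5 to 487), HSP90B1 at 4750.0 (others 3658 to 4061) and HSPD1 at 1449 (others 936 to 1116). BD replicate 2 was lowest in HSPB8 at 255 (others 319 to 347).

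Among very heavy drinkers, 1 animal each lay apart in 5 genes. VHD replicate 1 was lowest in HSPB3 at 12.3 (others 17.2 to 20.3) and highest in DNAJA1 at 3303 (others 2827 to 2929). VHD replicate 4 was highest in CALR at 2586 (others 1926 to 2086), VHD replicate 5 lowest in CCT5 at 1316 (others 1560.4 to 1643) and VHD replicate 3 lowest in CCT8 at 1850.3 (others 1999 to 2092). HD replicate 4 was lowest in HSPB1 at 53.6 (others 71.2 to 77.2), and LD replicate 1 was lowest in DNAJB2 at 1188 (others 1445 to 1632).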

How the results depend on the processing

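Limma called 0 chaperone genes under every alternative run: pseudocounts of 0.25 and 4, no minimum, a minimum of 100, array weights, median-of-ratios scaling, 4 sets of library numbers, no cohort or category term, single cohorts, each animal left out, and edgeR. Over all genes, cohort 4 against 7a gave 26 calls without the category term and 15 with sets of library numbers, against 0 in the reported fit. Of 1660 refits of the 42 named differences, 0 passed an adjusted p of 0.05 (smallest 0.0786) and 1 turned direction, DNAJB13 in VHD within cohort 7a, at 0.058. The number of correlated pairs was 3 without the 2 farthest animals against 5 with all, and 5 or 6 otherwise; the cause was not tested.

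Unadjusted counts moved more. With array weights they were 5 in VHD (2 in the reported fit), 12 in BD (4), 23 for any category (4) and 7 for any cohort (4). With sets of library numbers they were 1 in VHD, 5 in HD (14), 6 in BD, 2 for any category and 2 along the trend (5). With a minimum of 100, and within cohort 4, BD gave 2. Without the cohort term VHD gave 4 and any category 13. Without the category term any cohort gave 7 and cohort 4 against 7a gave 10 (5), which gave 1 among LD animals alone. Leaving out single animals gave 0 to 5 in VHD, 5 to 19 in HD and 2 to 8 in BD. The median difference changed sign in VHD with sets of library numbers and in BD with array weights (-0.018).

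No paired analysis was possible because the labels give no replicate numbers shared between categories. Depth limits low genes most: HSPB3 rests on 5 to 44 reads a library.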
